A study of Mus musculus with 10 samples.

Results

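The 46 genes described here were low or undetected in control oocytes and higher in every pool of Setdb1 mutant oocytes. They were chosen from 24453 gene symbols by their own levels, as genes below 1 RPKM (a read count divided by transcript length and by the library's total) in each of 6 control libraries and at or above 1 RPKM in each of 4 mutant libraries. Symbols of the Cyp2c, Zfp, Olfr, Vmn, Hist, Slc38 and Ifi27 families were left out, and 8 genes of these families met the same limits, among them Ifi27l2a at a mutant mean of 13.8 RPKM and Slc38a1 at 12.2. Because the limits fix the direction, the difference between mutants and controls is a description for these genes and was not tested. Below, a silent gene is one under 1 RPKM in the controls. A switched-on gene is one that meets both limits, even where its rise is small.

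RNA was sequenced from germinal vesicle (GV) oocytes, the full-size oocytes that still hold an intact nucleus before meiosis resumes, with a pool of 16 denuded oocytes from each of 10 mice on the C57Bl/6J background. The mutant group is 4 Setdb1 F/-; ZP3-cre mice, with 1 floxed allele of Setdb1, 1 deleted allele and a Cre transgene driven by the Zp3 promoter, active in growing oocytes. The controls are 4 Setdb1 F/+; ZP3-cre mice (f/+; Zp3-cre below), which have 1 floxed and 1 intact allele and the same transgene, and 2 Setdb1 F/- mice (f/- below), with a floxed and a deleted allele and no Cre. Every mouse thus carries a floxed allele, and Cre is absent from the f/- controls alone. No age is given for the animals. Each mouse is 1 replicate. In a pool, fewer oocytes with a transcript and less of the transcript per oocyte cannot be told apart.

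SETDB1 is an enzyme that methylates histone H3 at lysine 9, a mark of silent chromatin. Zinc finger proteins and their cofactor TRIM28 bring it to DNA, above all to endogenous retroviruses and to some genes of other tissues and of the germ line. Oocytes build their store of maternal RNA while they grow, and transcription has largely ceased by the full-grown GV stage. When the RNA measured here was made, and whether transcription ceased alike in mutants, was not tested.

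The targeted gene was checked first. Setdb1 stood at 1.31 to 4.06 RPKM in the 4 mutant libraries and at 19.9 to 52.5 RPKM in the 6 controls, and the groups did not overlap. Mutants minus controls gave -3.20 as log2(RPKM + 0.5), and an exact permutation test (two-sided) over 210 splits gave p = 0.0048, its lowest possible value. The deposited table holds no read totals. The spacing of its low values gave approximately 45800000 to 72800000 reads per library, with 69.0% to 73.0% of low values within 0.1 of a whole read. In the shallowest library 10 reads on a 2 kb transcript correspond to 0.109 RPKM, so many control values below rest on few reads. The defining oocyte genes, such as Zp3 and Gdf9, summed to 5006 to 5101 RPKM over 10 genes in mutants and to 4965 to 6544 in controls.

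Upstream sequence is shown for 4 of the 5 genes used to mark the set (Stox1, Clrn3, Tulp2, Bglap3 and Adam5), because their windows differ widely in CpG content. Each line gives the bases from 200 to 51 before the transcription start of the window given in RefSeq (GRCm38.p6), 5′ to 3′ on the gene's own strand, with every CG in capitals.
Stox1 (chr10:62726145-62726294, minus strand): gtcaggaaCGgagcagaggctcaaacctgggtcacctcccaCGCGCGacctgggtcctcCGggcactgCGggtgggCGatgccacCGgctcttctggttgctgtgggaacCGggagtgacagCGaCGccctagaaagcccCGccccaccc
Clrn3 (chr7:135528705-135528854, minus strand): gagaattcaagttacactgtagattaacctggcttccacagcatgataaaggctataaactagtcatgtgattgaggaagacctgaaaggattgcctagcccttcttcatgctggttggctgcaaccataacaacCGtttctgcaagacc
Tulp2 (chr7:45513506-45513655, plus strand): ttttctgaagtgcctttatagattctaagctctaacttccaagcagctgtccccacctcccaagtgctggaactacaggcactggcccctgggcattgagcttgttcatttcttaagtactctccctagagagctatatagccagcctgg
Bglap3 (chr3:88372792-88372941, minus strand): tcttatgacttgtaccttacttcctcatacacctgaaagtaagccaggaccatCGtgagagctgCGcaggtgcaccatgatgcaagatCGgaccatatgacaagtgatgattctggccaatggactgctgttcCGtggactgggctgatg

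These stretches of 150 bases hold 12 CG in Stox1, 4 in Bglap3, 1 in Clrn3 and 0 in Tulp2. In the full windows from 250 bases before to 50 after the start, the ratio of observed to expected CpG was 0.67 for Stox1, 0.41 for Bglap3, 0.29 for Clrn3 and 0.059 for Tulp2. On either strand, the letters TATAAA occur in the windows of Clrn3 and Tulp2, as in 13.6% of all 32851 windows of that length, and CGCG occurs in that of Stox1, as in 38.0%. Neither CACGTG nor TGACGTCA is in any of these 4 windows. They are in 7.15% and 1.79% of all windows. Windows were found for 34 of the 46 genes (73.9%), below the 80% needed, so a comparison of base composition over the whole set is void. Adam5 has no entry. For Tulp2 the start lies inside the annotated span of the gene, which also has starts farther upstream that were not examined. For the other 3 it is the outer end of the gene.

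Across the 46 genes the mutant mean ran from 1.31 to 18.9 RPKM with a median of 3.49, and the control mean from 0 to 0.61 RPKM with a median of 0.239. In 12 genes the mutant mean was at least 5 RPKM, and in 3, Bglap3, Stox1 and Adam5, every mutant library was at 5 RPKM or more. In 23 genes all controls were below 0.5 RPKM and in 3 below 0.1. The set holds 43 protein-coding genes and 3 long noncoding RNAs, and 6 of the 46 carry symbols of predicted genes. All 46 passed the filter on low values (an average of 0.5 RPKM or more) and so entered the fits across genes, 38 of them only through their mutant levels, with a control mean below 0.5 RPKM. By the choice of members no mutant library overlaps the controls. Over all 24453 genes, mutants lay above all controls in 2.38%.

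**Figure D1:**
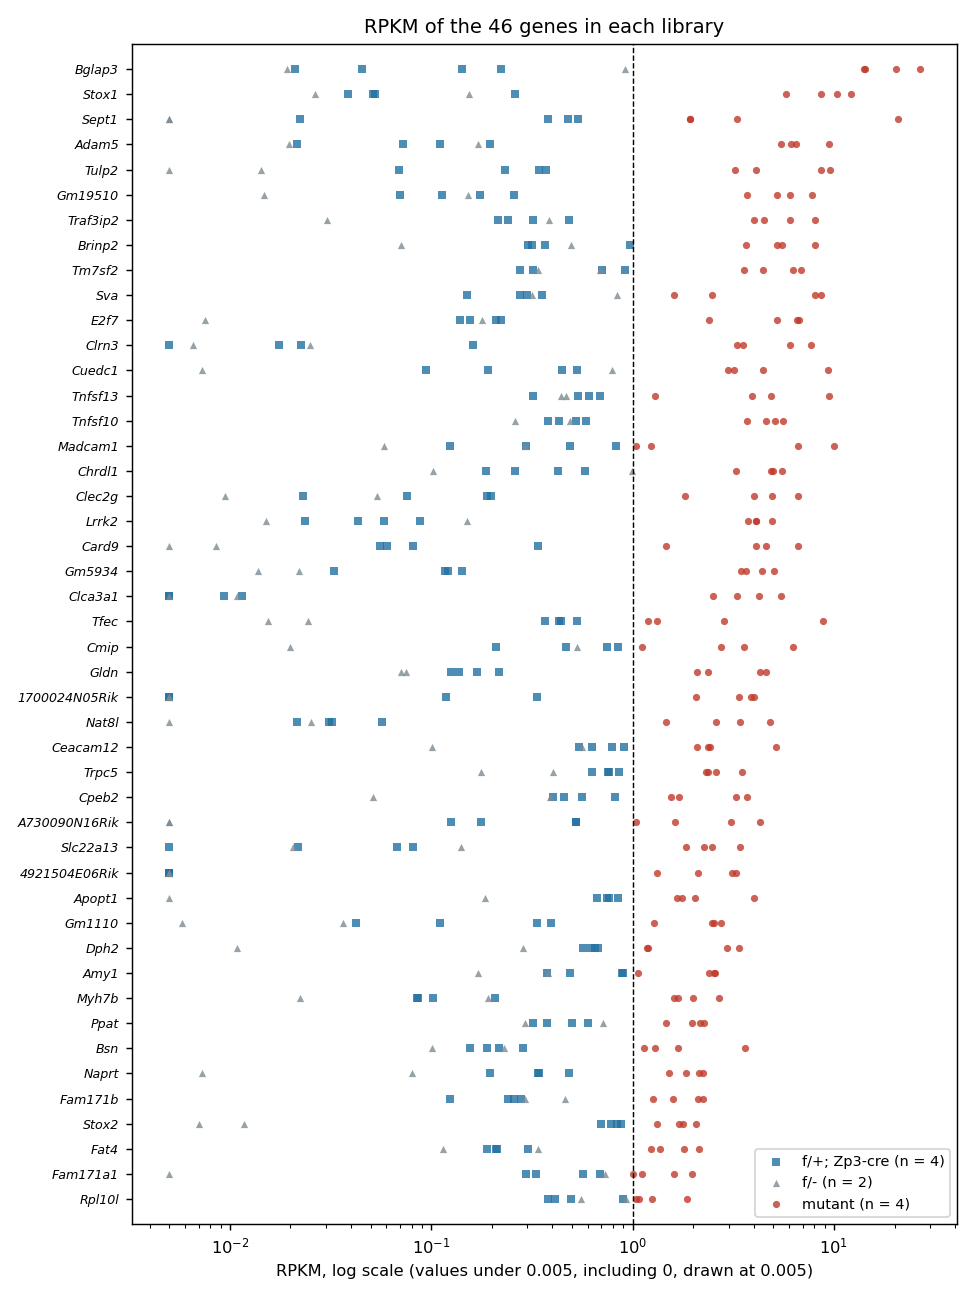
RPKM of each of the 46 genes (rows, ordered by mutant mean) in each library on a log axis, with red circles for 4 mutants, blue squares for 4 f/+; Zp3-cre and grey triangles for 2 f/- controls, and the limit of 1 RPKM dashed. Mutant values reach 26.7 RPKM in Bglap3, whereas several genes near the bottom, such as Rpl10l with a lowest mutant value of 1.04, lie close to the limit.

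Bglap3, related to the bone matrix hormone osteocalcin, had the highest mutant level. Mutant replicates 1 to 4 had 20.4, 26.7, 14.2 and 14.1 RPKM. Control values were 0.0455, 0.0210, 0.223 and 0.142 RPKM with f/+; Zp3-cre, and 0.913 and 0.0193 with f/-. Replicate 1 of f/- was thus the highest control, just inside the limit. The gene lies on chromosome 3 from 88368616 to 88372741, 6.95 Mb from Setdb1, which is on the same chromosome. Its relative Bglap2, 4.995 kb away, had a mutant mean of 0.0744 RPKM and a control mean of 0.0159, and Bglap had 0.0371 and 0. How reads that match several relatives were counted is not given, so these low values are uncertain. On the other side, 0.075 kb away, Paqr6 had 6.38 ± 1.81 RPKM (SD, n = 4) in mutants and 2.88 ± 1.37 (n = 6) in controls, which missed the threshold of 0.05 (limma adjusted p = 0.12).

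Transcription factor genes were 4 of the 46. Stox1 encodes a winged helix (storkhead box) factor and lies on chromosome 10 from 62659043 to 62726094. It stood at 12.1, 5.77, 8.61 and 10.4 RPKM in the mutants. Its f/+; Zp3-cre values were 0.0525, 0.0387, 0.262 and 0.0514 RPKM and its f/- values 0.154 and 0.0266, so the lowest mutant was far above the highest control.

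Its only paralog in the table, Stox2, met the limits as well, at a lower level. Stox2 (chromosome 8, 47180048 to 47413847) ranged from 1.32 to 2.06 RPKM over the mutants and from 0.696 to 0.872 over f/+; Zp3-cre. In the f/- libraries it was at 0.00701 and 0.0118 RPKM, far below the other controls.

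E2f7, which encodes an atypical E2F repressor of cell cycle genes, had 6.68, 2.40, 5.19 and 6.52 RPKM in mutants and at most 0.223 in any control. Tfec encodes a basic helix-loop-helix factor of the MITF family. It reached 8.83 RPKM in mutant replicate 4 against 1.19 to 2.84 in the other mutants and at most 0.527 in controls. Of its relatives, Mitf had a mean of 1.43 RPKM in mutants and 2.61 in controls, and Tfe3 50.1 and 46.1. Both missed the threshold of 0.05 (limma adjusted p of 0.16 and 0.56).

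Genes known from the male reproductive tract were another 4. Adam5 (chromosome 8, 24727093 to 24824369) belongs to a family of membrane proteins with a metalloprotease-like domain, several of which act in sperm. It had 5.49, 6.49, 6.15 and 9.44 RPKM in mutants, and at most 0.196 in f/+; Zp3-cre and 0.171 in f/-. This is one of the most even profiles among the highly ranked genes, with a highest mutant 1.72 times the lowest. Its neighbour Adam3, 0.716 kb away, had means of 0.0741 RPKM in mutants and 0.00913 in controls.

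Tulp2, a tubby-like gene expressed mainly in testis, lies on chromosome 7 from 45482026 to 45523646. It stood at 4.11, 3.22, 8.61 and 9.55 RPKM in mutants, so replicates 3 and 4 were the high ones. Its highest control was 0.373 RPKM. Sva, which encodes a seminal vesicle secretory protein, had the opposite order, with 8.65 and 8.09 RPKM in mutant replicates 1 and 2 and 2.48 and 1.60 in replicates 3 and 4.

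Rpl10l, a retrocopy of the ribosomal protein gene Rpl10 that acts in spermatogenesis, is the weakest of the 46. It had 1.04 to 1.87 RPKM in mutants and 0.380 to 0.928 in controls. Rpl10 itself, which every cell uses, was listed at a mean of 0.229 RPKM in controls. Why it is listed so low was not tested. Genes with near-identical copies may be listed far below their level, and the value of Rpl10l is uncertain.

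Genes of immune signalling and immune cell surfaces were 6 of the 46, with mutant means between 4.21 and 5.67 RPKM. Traf3ip2 encodes the adaptor of the interleukin-17 receptor. It had 4.03, 8.10, 6.06 and 4.52 RPKM in mutants and at most 0.486 in controls. Card9, an adaptor of innate sensing, had 4.11, 6.65, 4.62 and 1.46 RPKM in mutants and at most 0.340 in controls. The death receptor ligand gene Tnfsf10 (TRAIL) was among the even ones, at 3.71, 4.58, 5.08 and 5.62 RPKM against at most 0.589 in controls.

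The B cell factor gene Tnfsf13 (APRIL) spread from 1.29 to 9.42 RPKM over the mutants and from 0.322 to 0.688 over the controls. It shares 499 bases of 1 exon with the readthrough gene Tnfsfm13 on its own strand, which had 4.09 ± 2.45 RPKM in mutants and 0.913 ± 0.524 in controls (limma adjusted p = 0.028). Reads within the shared bases cannot be assigned to either gene. Madcam1, which encodes an adhesion molecule of mucosal vessels, had 6.66 and 9.99 RPKM in mutant replicates 1 and 2 and 1.04 and 1.24 in replicates 3 and 4, and its highest control was 0.825. The C-type lectin gene Clec2g had 1.82 to 6.64 RPKM in mutants and at most 0.199 in controls.

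Genes best known from neurons and their glia were 5. Brinp2, a secreted protein gene of the nervous system, had 3.67 to 8.06 RPKM in mutants. Its controls were 0.0705 to 0.494 RPKM apart from f/+; Zp3-cre replicate 3 at 0.971, just inside the limit. Gldn encodes gliomedin, which assembles the nodes of Ranvier, and had 2.10 to 4.62 RPKM in mutants and at most 0.217 in controls. Nat8l, the synthase of N-acetylaspartate, had 1.47 to 4.84 RPKM in mutants and at most 0.0573 in controls.

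Trpc5 encodes a cation channel and had 2.31 to 3.49 RPKM in mutants and 0.177 to 0.857 in controls. Bsn, a scaffold of the presynaptic active zone, reached 3.63 RPKM in mutant replicate 2 and 1.14 to 1.68 in the others, with at most 0.288 in controls. The 5 mutant means had a median of 3.08 RPKM, against 3.49 for the whole set.

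Secreted and membrane proteins made up 8 of the 46, including Bglap3. Clrn3 encodes a clarin, a tetraspan membrane protein. It lies on chromosome 7 from 135511456 to 135528654 and had 6.06, 3.55, 7.66 and 3.31 RPKM in mutants. Its controls were 0.162 RPKM in f/+; Zp3-cre replicate 1 and at most 0.0249 in the other 5. Clca3a1, of a family of secreted regulators of chloride channels, was the gene with the largest ratio of means among those not at 0, a mutant mean of 3.88 RPKM against 0.00593 in controls. Its mutant values were 4.25, 2.51, 5.44 and 3.30 RPKM, and no control exceeded 0.0115.

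Chrdl1, an inhibitor of bone morphogenetic proteins, had 3.28 to 5.50 RPKM in mutants, and its f/- replicate 1 at 0.997 was the control value nearest to the limit. Ceacam12, of the carcinoembryonic antigen family, had 5.15 RPKM in mutant replicate 2 and 2.08 to 2.44 in the others. The giant cadherin gene Fat4 had 1.23 to 2.14 RPKM in mutants and at most 0.340 in controls. Fam171b and Fam171a1, relatives that encode membrane proteins, had mutant means of 1.8 and 1.43 RPKM and control means of 0.275 and 0.435.

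Genes of enzymes and transport were 6. Tm7sf2, a sterol reductase of cholesterol synthesis, had 3.60, 6.29, 4.42 and 6.83 RPKM in mutants and 0.275 to 0.914 in controls. It shares 532 bases of 1 exon with Vps51 on its own strand, which had 4.09 ± 2.51 RPKM in mutants and 1.55 ± 0.388 in controls (limma adjusted p = 0.11). The organic anion transporter gene Slc22a13 had 1.84 to 3.41 RPKM in mutants and at most 0.141 in controls.

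Amy1 (amylase), Dph2 (diphthamide synthesis), Ppat (purine synthesis) and Naprt (NAD synthesis from nicotinic acid) had mutant means between 1.93 and 2.18 RPKM. Their control means lay between 0.241 and 0.533 RPKM. These 4 genes are near the limit rather than far above it.

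The remaining 7 named genes act inside the cell. Sept1, a septin of the cytoskeleton, had the widest spread of all, with 20.8 RPKM in mutant replicate 2 and 3.31, 1.93 and 1.94 in replicates 1, 3 and 4. The other 3 mutants lay below the set's median mutant mean of 3.49 RPKM. Lrrk2, which encodes a large kinase, had the narrowest, at 4.12, 4.10, 4.93 and 3.73 RPKM against at most 0.151 in controls.

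Cuedc1, a ubiquitin-binding domain gene, had 9.33 RPKM in mutant replicate 1 and 2.97 to 4.45 in the others. Cmip, an adaptor of T cell signalling, had 1.11 to 6.23 RPKM in mutants and up to 0.850 in controls. Cpeb2, a regulator of mRNA polyadenylation, Apopt1, a mitochondrial assembly factor, and Myh7b, a myosin heavy chain gene, had mutant means of 2.55, 2.37 and 2.00 RPKM.

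The 6 predicted genes had mutant means of 2.27 to 5.69 RPKM. In 1 of them all 6 control libraries were listed at 0, and it had 1.33 to 3.27 RPKM in mutants.

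Where the table holds several transcripts of a gene, the other transcripts could be read as well, although they share exons and libraries with the one used. Such rows exist for 16 of the 46 genes, and 20 of their 27 other rows met the same limits. The 4 rows of Adam5 had mutant means of 4.04 to 6.89 RPKM. Of the 7 that did not, 2 belong to Bglap3. They had mutant means of 15.7 and 17.4 RPKM but reached 1.06 and 1.20 RPKM in a control, so Bglap3 meets the limits by the row used and 1 other row. In Ceacam12 the 2 other rows had mutant means of 0.420 and 0.517 RPKM, against 3.01 for the row used.

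The mutants differed from each other in these genes. The highest mutant exceeded the lowest by a median factor of 2.18, from 1.32 in Lrrk2 to 10.8 in Sept1, and by less than 2 in 18 genes. Mutant replicate 2 was highest in 18 genes and lowest in 11, and replicate 4 was highest in 11 and lowest in 15. No replicate was thus highest throughout. Summed over the 46 genes the level was 188, 219, 174 and 171 RPKM in mutant replicates 1 to 4. In the same order Setdb1 itself was at 4.06, 2.55, 3.32 and 1.31 RPKM. With 4 libraries no relation between these measures was computed. The sum was 14.4 to 15.1 RPKM in f/+; Zp3-cre and 10.2 and 7.66 in f/-.

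**Figure D2:**
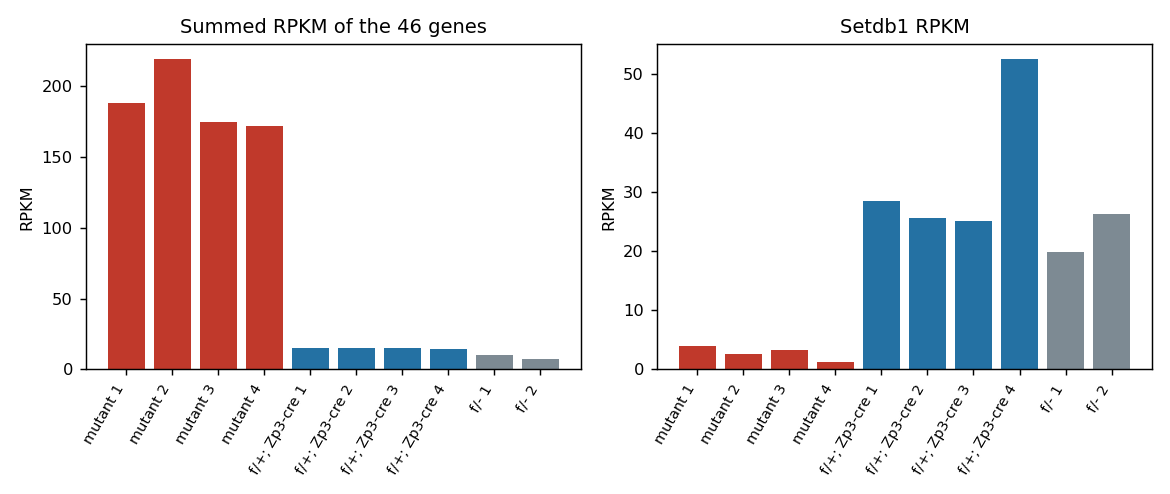
Summed RPKM of the 46 genes (left) and Setdb1 RPKM (right) in each library, with 1 bar per library and red for mutants, blue for f/+; Zp3-cre and grey for f/-. The sums lie between 171 and 219 in mutants and at 15.1 or less in controls, a difference fixed by the choice of the genes, whereas their order among the mutants was not part of that choice.

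Leaving out 1 library shows how far the list of genes depends on it. The chosen genes that also meet the limit in that library are always the 46. Each share is thus 46 over the length of the list chosen without it. When the genes were chosen from the other 9 libraries, 46 of 57 genes (80.7%) were also at or above 1 RPKM in mutant replicate 1 once it was left out. The share was 78.0% for replicate 2, 82.1% for replicate 3 and 64.8% for replicate 4. Among all genes silent in the controls, 2.44% to 2.99% reached 1 RPKM in the same libraries. Most of these genes (92.7%) were below 1 RPKM in every mutant, so they are not matched to the chosen genes. The share kept was smallest for replicate 4. Without it 71 genes met the limits, over 1.5 times the 46.

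In left-out controls, all 46 chosen genes were below 1 RPKM for f/+; Zp3-cre replicate 1, 93.9% to 97.9% for the other f/+; Zp3-cre replicates and 83.6% and 85.2% for f/- replicates 1 and 2. Among all genes silent in the other controls these shares were 98.9% to 99.7% and 97.5% for each f/- library. The share of chosen genes was the lower one in 5 of the 6 controls, all but f/+; Zp3-cre replicate 1, and these differences were not tested.

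With both f/- libraries left out, 65 genes met the limits and 46 of them (70.8%) were below 1 RPKM in both. The 19 others include Lsmem1, which had 26.2 to 37.2 RPKM in mutants and missed the set through 1.08 RPKM in f/- replicate 1. Pth2r, a parathyroid hormone receptor gene, had 1.72 to 4.19 RPKM in mutants, at most 0.0135 in f/+; Zp3-cre, and 0 and 2.70 in the f/- replicates. Rarb, a retinoic acid receptor gene, had 2.05 to 4.15 RPKM in mutants and 1.06 in f/- replicate 1.

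**Figure D3:**
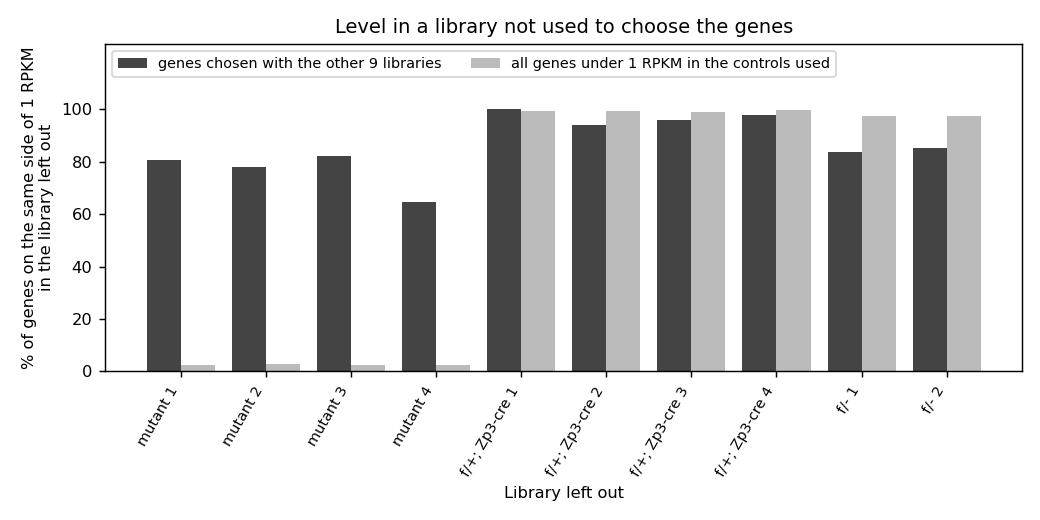
Share of genes (%) on the same side of 1 RPKM in a library left out of the choice, for genes chosen with the other 9 libraries (dark) and for all genes silent in the controls used (light). In left-out mutants 64.8% to 82.1% of the chosen genes were at or above 1 RPKM, against 2.44% to 2.99% of silent genes.

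Counts of silent genes fell steeply with the number of mutants at or above the limit, but little from 3 mutants to 4. Of 13135 genes below 1 RPKM in all controls, 12181 (92.7%) were also below it in all mutants, 677 were at or above it in 1 mutant, 161 in 2, 62 in 3 and 54 in all 4, the left-out families included. Each mutant had between 320 and 393 silent genes at or above 1 RPKM, and most such genes were present in 1 or 2 mutants only. Controls have none because silence was defined on them. Of the genes silent in the other controls, 97.5% were below 1 RPKM in each left-out f/- library, and the rest reached it. Over the tested genes, replicates correlated at 0.886 to 0.955 in mutants, 0.878 in f/- and 0.972 to 0.987 in f/+; Zp3-cre. The cause of levels seen in 1 or 2 mutants was not tested. In the reverse direction, 26 genes were below 1 RPKM in all mutants and at or above it in all controls. Just inside the lower limit were Fam171a1, with a lowest mutant of 1.01 RPKM, Rpl10l at 1.04 and Madcam1 at 1.04. Just outside it were Lrit3 at 0.994, Tmc2 at 0.980 and Cyp4a14 at 0.947. Just outside the upper limit were Rpl36a, with a highest control of 1.02 RPKM, Rarb at 1.06 and Lsmem1 at 1.08.

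The control genotypes are described here without a test, since the rule capped all 6 controls of the 46 genes at 1 RPKM. Of all 11338 genes tested, limma called 8 (0.0706%) between f/- and f/+; Zp3-cre, 5 higher (0.0441%) and 3 lower (0.0265%) in f/-. Over the 46 the median of the f/- means was 0.101 RPKM and that of the f/+; Zp3-cre means 0.293. The f/- mean was the lower one in 36 of the 46 (78.3%), in 47.8% of all genes, and in 71.0% of the 2496 other genes silent in the controls with a control mean of at least 0.1 RPKM. The 34 of the 46 at that level had a share of 79.4%.

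Both f/- libraries lay below all 4 f/+; Zp3-cre libraries in 14 of the 46 (30.4%) and in 14.5% of all genes. At a control mean of at least 0.1 RPKM this held for 12 of the 34 (35.3%) and for 31.2% of the 2496 other silent genes. Apart from Stox2, Apopt1 was an example, at 0.665 to 0.848 RPKM in f/+; Zp3-cre and 0.185 and 0 in f/-. Fam171b was the 1 gene in the opposite order, which 5.75% of all genes show. Detection of rare transcripts differed between the libraries. Of the genes silent in controls, 20.4% and 23.2% were listed above 0 in the f/- libraries, 36.0% to 41.8% in f/+; Zp3-cre and 22.5% to 32.8% in mutants. The part of this in the control values was not tested.

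The 46 genes were spread over 15 chromosomes and did not lie side by side. Chromosome 3 held 6 of them (13.0%, with 4.68% of all genes placed), chromosome 2 held 5, and 5 of the autosomes held none. The closest pair was Chrdl1 and Trpc5 on chromosome X, 0.983 Mb apart with 6 genes of the table between them. The gap was 1.12 Mb for Sva and the nearest predicted gene, and every other gap was at least 6.80 Mb. Immediate neighbours, tested or not, were below 1 RPKM in all 10 libraries in 36 of 91 cases (39.6%, against 49.8% of all genes). The 46 were passed over in picking these neighbours, so only the 8 genes of left-out families could have met the limits. None of the 91 was one of them. For 6 of the 46 genes the neighbours on both sides were below 1 RPKM throughout.

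Nearby genes outside the 46 were tested, although 7 of the 90 share exon bases, and thus reads, with one of the 46. The 46 were passed over as neighbours, so the rule limits neighbours to genes that did not meet it, left-out families apart. The shares over all tested genes include the 46. The 90 are the nearest tested genes at any distance, with a median gap of 47.6 kb and a widest gap of 11388 kb. Of the 90 nearest tested genes on either side, 6 rose and 1 fell in mutants (limma, adjusted p threshold of 0.05). That is 7.78%, against 5.33% called among all 11338 tested genes, with 6.67% higher against 3.1%. Without the 7 that share exon bases, 5 of 83 rose and 1 fell. The median log2 change was 0.12 for these neighbours and 0.03 for all tested genes. Odf3l2, a sperm tail gene 18.8 kb from Madcam1, rose from 0.0721 ± 0.0884 to 2.20 ± 2.81 RPKM (adjusted p = 0.037 by limma). It had 6.41 RPKM in mutant replicate 4 and 0.602 to 0.955 in the others. With a control mean below 0.5 RPKM, it entered the test only through its mutant levels. It did not pass in 9 of 19 alternatives. Replicate 4 was low for Madcam1, at 1.24 RPKM, so the pair did not share a highest library.

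Vezf1, a zinc finger factor gene 14.4 kb from Cuedc1, rose from 19.1 ± 3.04 to 36.4 ± 13.0 RPKM (limma adjusted p = 0.023). Nobox, a homeobox factor of oocyte growth 129 kb from a predicted gene of the set, rose from 205 ± 21.3 to 274 ± 25.5 RPKM (limma adjusted p = 0.023). Nceh1, which encodes a cholesteryl ester hydrolase, lies 71.8 kb from Tnfsf10 and fell from 44.7 ± 3.64 to 29.9 ± 6.31 RPKM (limma adjusted p = 0.025). The other rises were those of Tnfsfm13 and 2 predicted genes. Most neighbours did not pass, and 53 of the 90 changes (58.9%) were above 0, against 52.7% over all tested genes. The number called was 3 without f/+; Zp3-cre replicate 1, 2 or 4, 4 without mutant replicate 2 or 4, and 4 against f/+; Zp3-cre alone, a comparison that called 4.89% of all tested genes.

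By distance rather than order, 97 tested genes outside the 46 start within 100 kb of the start of one of them. Of these 6 rose and none fell by limma (6.19%). Among all tested genes 5.33% were called and 3.1% were higher. The change was above 0 in 73 of the 97 (75.3%), with a median of 0.18 on the log2 scale. Over all tested genes these were 52.7% and 0.03, and the difference was not tested. Without the 8 that share exon bases the share was the same, 75.3%. Besides Vezf1, Odf3l2 and Tnfsfm13, the genes that rose were Ckb, Nelfa and Senp3. Ckb, a creatine kinase gene, rose from 35.3 ± 6.85 to 63.6 ± 2.98 RPKM (limma adjusted p = 0.0017). Nelfa, a subunit gene of a factor that pauses RNA polymerase II, rose from 99.3 ± 16.2 to 149 ± 11.7 RPKM (limma adjusted p = 0.015). Senp3, a SUMO protease gene, rose from 4.98 ± 0.482 to 8.08 ± 0.607 RPKM (limma adjusted p = 0.046), and did not pass in 13 of 20 alternatives.

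**Figure D4:**
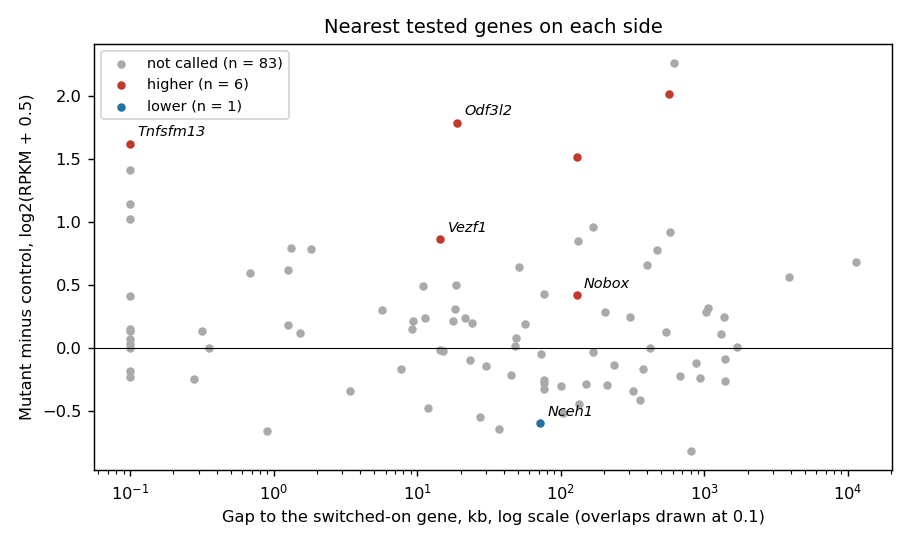
Difference between mutant and control means on the log2(RPKM + 0.5) scale for the 90 nearest tested genes, against the gap to the switched-on gene in kb on a log axis, with 6 called higher in red, 1 called lower in blue and the others in grey. The called genes lie at gaps from 0 to 567 kb, with Tnfsfm13 overlapping its neighbour and Nobox at 129 kb.

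The library kit did not mark strand, so genes that share exon sequence share reads. By GENCODE M21, 17 of the 46 genes overlap an exon of another annotated gene and 12 partners are in the table, 8 of them on the opposite strand. Of the 8 partners tested, 1 was called, Tnfsfm13. Ppat shares 272 bases with Paics, which had 32.0 ± 1.83 RPKM in mutants and 30.5 ± 2.73 in controls. Naprt shares 277 bases with Eef1d, at 46.4 ± 11.5 and 41.9 ± 7.94 RPKM. Amy1 shares 1128 bases of 1 exon with Rnpc3 on its own strand by this annotation, although their RefSeq spans lie 27.3 kb apart. Rnpc3 had 7.07 ± 1.5 RPKM in mutants and 11.1 ± 4.98 in controls. These 3 partners are more abundant than the genes listed here and did not pass (limma adjusted p of 0.78, 0.70 and 0.29).

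In 21 families defined by symbol, chosen after the set was known, 43 other genes could be tested, 2 rose and 1 fell by limma. Over all tested genes, the chosen ones included, 3.1% were higher and 2.22% lower. Ceacam2, a relative of Ceacam12, rose from 4.25 ± 1.48 to 14.0 ± 1.47 RPKM (limma adjusted p = 0.00075). Among the septins Sept14 rose from 11.6 ± 4.15 to 42.9 ± 7.71 RPKM and Sept3 fell from 2.13 ± 1.12 to 0.0788 ± 0.112 (limma adjusted p of 0.00018 and 0.0032). The 4 other septins tested did not pass.

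In families where the relatives were too low to test, single genes stood out. The 7 other genes of the Clca family had mutant means of at most 0.227 RPKM, and the 2 other clarin genes at most 0.00471. All 5 other amylase genes were listed at 0 in every library. How reads that match several copies were counted is not given, so a listed 0 does not show absence. In the Adam family 9 other genes were tested and none passed, with Adam10 at 15.6 ± 2.58 RPKM in mutants and 21.3 ± 3.08 in controls. Tulp3, Tulp4 and Tub, the 3 tested relatives of Tulp2, did not pass either.

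**Figure D5:**
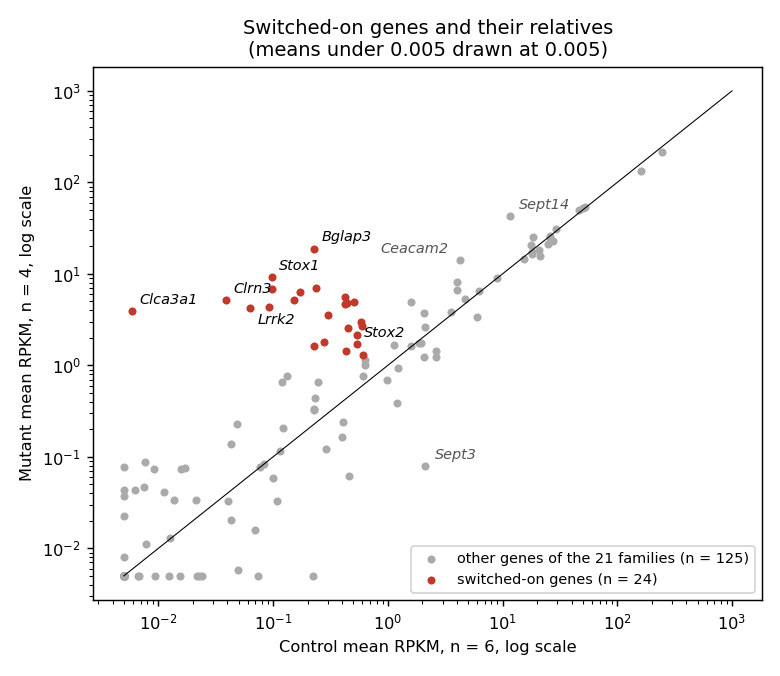
Mean RPKM in 4 mutants against mean RPKM in 6 controls on log axes, for the switched-on genes that belong to 21 symbol families (red) and their relatives (grey), with the line of equal means. Relatives named in grey, Sept14, Ceacam2 and Sept3, are the 3 that passed the limma threshold.

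Lists of genes with a common function were read next, to see whether other genes of the same kind changed. Of 18 tested genes of the SETDB1 pathway, which includes its partners, HP1 proteins and other H3K9 methyltransferases, Setdb1 itself fell and 17 did not pass. Morc2a averaged 18.6 ± 3.59 RPKM in mutants against 12.3 ± 1.95 in controls. The SETDB1 cofactor gene Atf7ip had 60.6 ± 5.82 and 43.6 ± 7.90 RPKM. Both missed the threshold (limma adjusted p of 0.067 and 0.083). The median log2 change of the list was 0.11.

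Of 48 sperm and testis genes, 35 were below 1 RPKM in every library and 11 were tested. Adam5 and Tulp2 were 2 of the 11, and none of the other 9 passed. The sperm tail gene Spag16 had 8.26 ± 4.32 RPKM in mutants and 3.51 ± 0.705 in controls (limma adjusted p = 0.075). Of 5 tested photoreceptor and hair cell genes, Tmc2, a component of the channel of hair cells, rose from 0.259 ± 0.0806 to 1.96 ± 1.5 RPKM (limma adjusted p = 0.019). Tmc2 missed the set by 1 mutant at 0.980. With a control mean below 0.5 RPKM, it entered the test only through its mutant levels. The 4 tested bone matrix genes and the 2 tested trophoblast genes did not pass. Bone matrix genes included Dmp1 at 1.28 ± 0.961 RPKM in mutants and 0.162 ± 0.137 in controls. Sp7 was at 2.63 ± 5.25 RPKM in mutants, with 10.5 in its highest library and 0 in its lowest, and 0.00658 ± 0.0161 in controls.

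Markers of other cells were read beside these levels, since several of the 46 genes are known from immune and other somatic cells. Summed granulosa and cumulus markers (12 genes) were at 78.1 to 112 RPKM in mutants and 76.1 to 104 in controls, mostly through Serpine2. None of 7 tested passed. Summed markers of blood, immune and endothelial cells (10 genes) were at 22.1 to 42.9 RPKM in mutants and 29.9 to 46.8 in controls, mostly through C1qb and Pecam1. None of 5 tested passed. Hbb-b1, Hba-a1 and Cdh5 were listed at 0 in all libraries, although a listed 0 does not show absence for genes with near-identical copies. Summed theca and stroma markers (9 genes) were at 0.959 to 3.91 RPKM in mutants and 1.36 to 3.93 in controls, with Cyp17a1, Lhcgr and Col3a1 listed at 0 throughout. Sperm and testis markers (8 genes) were at 16.8 to 21.7 RPKM in mutants and 10.6 to 19.7 in controls, mostly through Sycp3, and Tnp1 and Acr were listed at 0. These 4 sums overlapped between mutants and controls. Sums led by a few abundant genes cannot show a change of a few RPKM in a low marker. Cd68 and Ptgs2 had mutant means of 3.89 and 1.74 RPKM against 1.22 and 0.770 in controls. Kitl and Tie1 went the other way, at 0.542 and 0.874 RPKM in mutants against 0.885 and 1.54.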

How the data were processed

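The deposited values are RPKM of 34768 RefSeq transcripts in 10 libraries, as the authors made them. Per the submitters' processing notes, bcl2fastq 1.8.3, STAR and the build mm10 were used. For the counting tool and reads with several matches, nothing is given in the sources used here. Per the labels' protocols, cDNA was amplified with a NuGen Ovation system before library preparation with a TruSeq DNA kit.

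Each symbol was read from its most abundant row (by mean RPKM over all libraries). Tests across genes used limma 3.58.1 in R 4.3.3 on log2(RPKM + 0.5), a scale that understates changes of low genes, for the 11338 genes averaging 0.5 RPKM or more, with an empirical Bayes trend and Benjamini-Hochberg adjustment over all of them (threshold 0.05). Mutants were compared with both control genotypes together; f/- and f/+; Zp3-cre were compared in a model with 3 groups. Setdb1 was tested with an exact permutation test. The limma script was tested on simulated data. Positions are from RefSeq GRCm38.p6, exon overlaps and transcript lengths from GENCODE M21 on the same build.

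The members, lists and families were chosen with earlier results of these data known. Named are the 5 marker genes, the 25 members with the highest mutant means, genes at the limits, neighbouring genes called (at most 12) and list members with the smallest p. The other members, relatives, overlap partners, Pth2r, genes within 100 kb and the role groups were chosen after their values were seen, and symbols of predicted genes were counted rather than named.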

Additional observations from a re-analysis of the deposited data

Results flagged for a closer look

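In 113 groups of 4 libraries, covering the 46 genes, Setdb1 and the nearby genes that passed the test, 12 held a library whose gap to the nearest other exceeded 0.829 of the range. For normally distributed values chance alone flags about 1 group in 20. That rate need not hold for RPKM of genes chosen by limits, so the 12 are not read as an excess. The values below are RPKM.

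Among mutants, replicate 2 stood apart in 4 of the 46 genes. Sept1 had 20.8 there against 1.93 to 3.31 in the other mutants, Ceacam12 5.15 against 2.08 to 2.44, and Apopt1 4.02 against 1.66 to 2.04. Amy1 was low there, at 1.06 against 2.41 to 2.57. Odf3l2, the neighbour of Madcam1, had 6.41 in mutant replicate 4 against 0.602 to 0.955.

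Among f/+; Zp3-cre controls, replicate 3 was high in 4 genes. Brinp2 had 0.971 there against 0.304 to 0.368, Card9 0.340 against 0.0559 to 0.0810, Myh7b 0.208 against 0.0849 to 0.102 and Stox1 0.262 against 0.0387 to 0.0525. Clrn3 had 0.162 in replicate 1 against at most 0.0227, and Odf3l2 0.241 in replicate 2 against 0.0567 to 0.0697. Setdb1 had 52.5 in replicate 4 against 25.1 to 28.6. All these control values of the 46 genes stayed below the limit that defines the set.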

How the results depend on the processing

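The number of genes meeting the limits was 46 as defined and 37 to 65 with the limit at 0.5 or 2 RPKM, rows of a symbol summed, libraries scaled to 1 median, or both f/- libraries left out. Of the 46, 23 were also found at the limit of 0.5 RPKM, 20 at 2 RPKM, 34 with summed rows and 44 after scaling. Leaving out 1 library gave 46 to 71 genes. Calls for mutants against controls were 604, and 1388 with array weights, 399 without a filter on low values and 376 with the replicate block. Leaving out 1 library gave 360 to 794. Calls between f/- and f/+; Zp3-cre were 8, and 0 with array weights, 25 with a filter at 2 RPKM or a pseudocount of 0.1, 21 without a filter, 17 with quantile normalization and 1 with the replicate block. Leaving out 1 library gave 0 to 840, the most without f/- replicate 1, where the group is 1 library assumed to vary like the others. Calls among the neighbours were 7, and 11 with array weights, 1 without a filter, 4 when compared with f/+; Zp3-cre alone and 4 with the replicate block. Leaving out 1 library gave 3 to 9. The cause of these shifts was not tested. Deviations of mutant and f/+; Zp3-cre replicates of 1 number had correlations of -0.045 to 0.031, and 2 of 4 mutants were closest to their own number. These few values do not settle whether same-numbered libraries pair. The Setdb1 difference stayed between -3.39 and -2.69 on the log2 scale in the alternatives run, and leaving out 1 library gave -3.38 to -2.94, with exact p of at most 0.012. Leaving out the 7 neighbours that share exon bases with a chosen gene, an alternative chosen after seeing the data, gave 6. Of 14 other genes that passed and are not among the 46, Ceacam2, Ckb, Sept14, Sept3 and a predicted gene passed in all alternatives run, the other 9 were lost in at least 1, and none changed direction. Values below about 0.1 RPKM rest on few reads at this depth.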
